A study of Gallus gallus with 8 samples.

Results

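NEFM and NEFL, UCHL1 and RTN1 are 4 genes commonly used as markers of neurons, and they are described here in dissected hair cell epithelia of chick embryos. NEFM and NEFL encode the medium and the light neurofilament protein, UCHL1 encodes ubiquitin C-terminal hydrolase L1, and RTN1 encodes reticulon 1. Every probe set whose deposited gene name was one of these symbols was taken, which gave 4 of the 10646 genes named on the array, 8 probe sets in all. Of these, 7 passed the filter on dim signals (log2 over 4 on 4 or more arrays) and were tested, and the other, set 3 of NEFM, was too dim. The groups were the utricle, a vestibular organ, with 4 arrays, and the cochlea, the auditory organ, with 4 arrays. Both came from chick embryos (Gallus gallus) of embryonic day 20 to 21 whose eggs were incubated at 38 °C, and the labels state no drug treatment, strain or genotype. Each array carried RNA of 10 to 20 pooled epithelia, and the labels name the arrays as biological replicates, 4 per tissue, without saying how the pools were made, so the errors below are the spread between such pools.

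Neurofilaments are intermediate filaments of axons. The light and medium proteins assemble together with a heavy one, and they fill large axons and set their calibre. UCHL1 is a deubiquitinating enzyme that is abundant in neurons and releases ubiquitin from small adducts. RTN1 belongs to the reticulons, membrane proteins that shape the tubules of the endoplasmic reticulum, and it is known for its abundance in neurons and neuroendocrine cells. In the inner ear the axons belong to the afferent neurons, whose cell bodies lie in a ganglion outside the epithelium, and to efferent fibres, and their endings reach the hair cells. The labels describe the dissected tissue as hair cells and supporting cells, and do not mention neurons.

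Values are log2 GCRMA signal as the authors deposited it, and differences are utricle minus cochlea, so that a negative difference means a higher signal in the cochlea. Arrays of a tissue correlated at 0.9929 to 0.996 in the utricle and at 0.9945 to 0.9971 in the cochlea, and arrays of different tissues at 0.9619 to 0.9695. The arrays utricle 2 and utricle 3 stood apart for some genes, which were picked out after their values were seen. CALB1, a calcium-binding protein, had a log2 signal of 2.49, 7.47, 6.89 and 2.50 in the utricle, against 15.42, 15.33, 15.35 and 15.37 in the cochlea. MBP, myelin basic protein, had 8.0, 12.19, 12.20 and 7.68 in the utricle, against 8.90, 9.73, 9.66 and 8.60 in the cochlea. Each main result is therefore given with and without utricle 2 and utricle 3.

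The 4 genes split by tissue. Both neurofilament genes and UCHL1 were higher in the cochlea, and RTN1 was higher in the utricle. By probe set, 3 of the 7 tested were higher in the utricle and 4 were higher in the cochlea (limma, Benjamini-Hochberg adjusted p under 0.05 over 16223 probe sets). Over all probe sets tested, 26.4% were called higher in the utricle and 25.1% were called higher in the cochlea. For all 7 the arrays of the tissues did not overlap, which was so for 48.7% of all probe sets tested. The tested NEFM sets, under 4 on every utricle array, passed the filter only through the cochlea arrays. For them the direction and the lack of overlap follow from the filter and are not support. A call alone therefore does not set these genes apart, and their sizes are given against the rest of the array below. In tissue RNA, fewer cells of a type and less RNA per cell cannot be told apart.

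**Figure D1:**
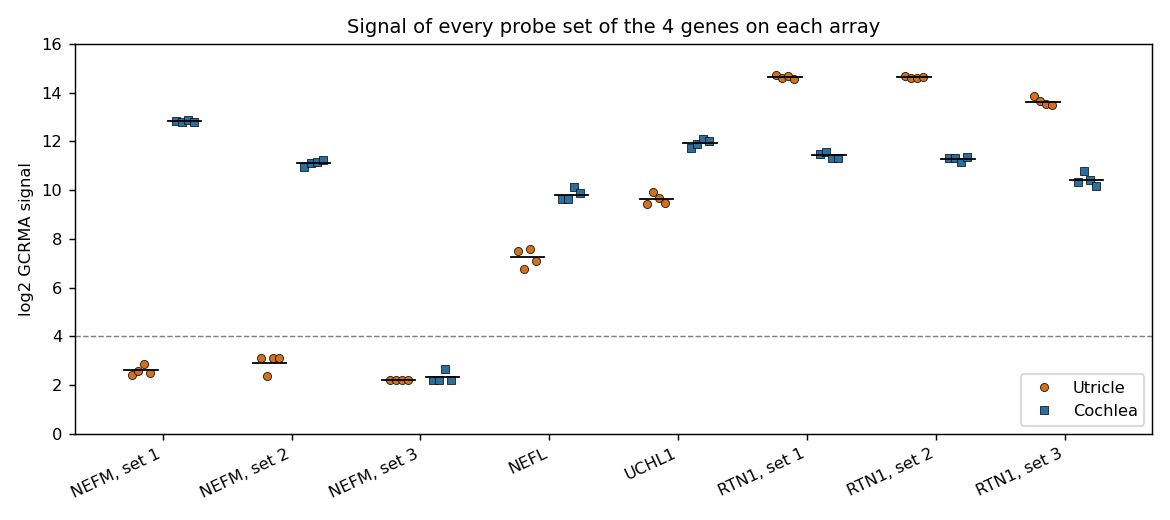
Log2 GCRMA signal (vertical axis) of the 8 probe sets of NEFM, NEFL, UCHL1 and RTN1 on each of the 4 utricle arrays (circles, left of each pair) and 4 cochlea arrays (squares, right). Short lines are means, and the dashed line marks the log2 signal of 4 used as the filter. NEFM set 1 lies between 2.43 and 2.87 in the utricle and between 12.79 and 12.86 in the cochlea, and all 3 RTN1 sets are higher in the utricle.

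NEFM gave the widest gap of the 4 genes. Its brightest probe set (set 1) had a log2 signal of 2.43, 2.57, 2.87 and 2.51 in the utricle, against 12.85, 12.81, 12.86 and 12.79 in the cochlea. All utricle arrays were under the log2 signal of 4, and no array of the utricle had a present call (the Affymetrix MAS 5.0 verdict, as the authors deposited it, that a transcript is detected), while all 4 cochlea arrays had one. The mean log2 signal was 2.59 ± 0.192 in the utricle and 12.83 ± 0.0357 in the cochlea (SD, n = 4 each), a difference of -10.23 (95% confidence interval -10.48 to -9.99, limma adjusted p = 5.45e-10). Because the utricle values lie in the range of undetected probe sets, the fold was computed with values under 4 raised to 4, which puts the cochlea at least 455-fold higher.

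Set 2 of NEFM had a log2 signal of 3.10, 2.38, 3.10 and 3.10 in the utricle, against 10.93, 11.13, 11.16 and 11.22 in the cochlea. It too was called present on 0 utricle arrays and 4 cochlea arrays. The difference was -8.19 (95% confidence interval -8.59 to -7.80, limma adjusted p = 9.70e-09), or at least 138-fold higher for the cochlea. Set 3 of NEFM stood at a log2 signal of 2.22 on all 4 utricle arrays, against 2.22, 2.22, 2.66 and 2.22 in the cochlea. It was called present on no array and was not tested, so the 3 probe sets of NEFM disagree, and what the dim one measures was not tested. Utricle 2 and utricle 3, where CALB1 was bright, had NEFM signals of 2.57 and 2.87, and without them the difference of set 1 was -10.36 (adjusted p = 9.98e-08).

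NEFL, the other neurofilament gene, was detected in both tissues and was lower in the utricle. Its only probe set had a log2 signal of 7.52, 6.78, 7.58 and 7.08 in the utricle, against 9.64, 9.64, 10.12 and 9.88 in the cochlea. The highest utricle array lay well below the lowest cochlea array, and all 8 arrays had a present call. The mean log2 signal was 7.24 ± 0.378 in the utricle and 9.82 ± 0.232 in the cochlea (SD, n = 4 each). The difference was -2.58 (95% confidence interval -3.03 to -2.13, limma adjusted p = 9.97e-06), which is 5.98-fold higher in the cochlea. Without utricle 2 and utricle 3 it was -2.52 (adjusted p = 1.69e-04). NEFM and NEFL lie next to each other on chromosome 22 in the RefSeq annotation of the chicken assembly GRCg7b, while UCHL1 and RTN1 lie on chromosomes 4 and 5. NEFH, the heavy neurofilament protein, had a log2 signal of 2.29 on every utricle array, against 2.29 to 2.59 in the cochlea. It was called present on 2 utricle arrays and 3 cochlea arrays but was too dim to be tested.

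UCHL1 had a log2 signal of 9.43, 9.91, 9.68 and 9.49 in the utricle, against 11.73, 11.88, 12.10 and 12.00 in the cochlea. The tissues did not overlap, and all 8 arrays had a present call. The mean was 9.63 ± 0.217 in the utricle and 11.93 ± 0.16 in the cochlea (SD, n = 4 each). The difference was -2.30 (95% confidence interval -2.60 to -2.0, limma adjusted p = 1.70e-06), or 4.93-fold higher in the cochlea. Utricle 2 and utricle 3 were its brightest utricle arrays, and without them the difference was -2.47 (adjusted p = 3.45e-05).

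RTN1 went the other way. Its probe set with the highest signal (set 1) had a log2 signal of 14.72, 14.59, 14.68 and 14.56 in the utricle, against 11.50, 11.56, 11.33 and 11.30 in the cochlea. All utricle arrays were above all cochlea arrays, and the gene was called present on all 8. The mean was 14.64 ± 0.0738 in the utricle and 11.42 ± 0.127 in the cochlea (SD, n = 4 each). The difference was 3.21 (95% confidence interval 3.00 to 3.42, limma adjusted p = 3.21e-08), a 9.27-fold higher signal in the utricle, and it was also 3.21 without utricle 2 and utricle 3 (adjusted p = 1.03e-05).

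The suffix x_at in this probe set's identifier marks probes that can also match other transcripts, so the other RTN1 probe sets bear on it. Set 2 of RTN1 had a log2 signal of 14.70, 14.60, 14.61 and 14.64 in the utricle, against 11.31, 11.30, 11.16 and 11.36 in the cochlea. Set 3 of RTN1 had 13.85, 13.65, 13.53 and 13.50 in the utricle, against 10.32, 10.77, 10.40 and 10.16 in the cochlea. Neither overlapped between the tissues, and their differences of 3.36 (95% confidence interval 3.18 to 3.54) and 3.22 (2.89 to 3.55) lay close to the first, with limma adjusted p of 1.36e-08 and 4.07e-07. All 3 measure 1 gene on the same arrays, so they are not replicates of the tissue.

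Against the rest of the array these differences were large. The genes were chosen with earlier results of these data known, so their ranks may reflect that choice and are not independent support. Among 15301 probe sets whose mean was at least 4 in both tissues, 97.0% had a smaller absolute difference than NEFL and 95.9% had a smaller one than UCHL1. For the RTN1 probe sets the shares were 98.3% for set 1, 98.5% for set 2 and 98.3% for set 3. In the direction of each gene, 217 probe sets differed more than NEFL, 287 more than UCHL1 and 144 more than the brightest RTN1 probe set. NEFM is not ranked, because its utricle signal is only a bound. The median difference over all probe sets tested was 0.01.

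Arrays with the same replicate number in the labels were also set against each other. The difference of the same-numbered arrays ran between -10.00 and -10.42 for the first NEFM probe set and between -7.83 and -8.75 for the second. It ran between -2.12 and -2.85 for NEFL and between -1.97 and -2.51 for UCHL1. For RTN1 the ranges were 3.03 to 3.35, 3.28 to 3.45 and 2.88 to 3.53. All 4 same-numbered pairs showed the direction of the mean for every tested probe set, which the lack of overlap already implies. In the authors' deposited table of the same comparison, by SAM, the fold for higher in the cochlea was 1215.47 and 294.05 for NEFM, 6.51 for NEFL and 5.12 for UCHL1, and the fold for higher in the utricle was 9.64, 9.93 and 10.5 for RTN1. Those NEFM folds use the signals of undetected utricle arrays, and the bounds above do not.

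Whether the genes differed from each other was tested within arrays, by taking the log2 difference between 2 genes on the same array (values under 4 raised to 4) and comparing the tissues by an exact two-sided permutation test. There were 11 pairs, and the smallest p that 4 against 4 arrays allow is 0.0286. With arrays exchanged only within pairs of equal replicate number, a check added after seeing the data, the exact p could not go below 0.125, so no pair of genes could pass, and it was 0.125 for all but NEFL minus UCHL1 (0.375). The p-values below exchange arrays freely. The tissue difference of NEFM minus NEFL was -6.25 (exact p = 0.0286, adjusted over the 11 pairs 0.0314). That of NEFM minus UCHL1 was -6.53, that of UCHL1 minus RTN1 was -5.51 and that of NEFL minus RTN1 was -5.79, each with the same p. NEFL minus UCHL1 was the exception, with a tissue difference of -0.28 (exact p = 0.457, adjusted 0.457), from a mean of -2.39 ± 0.533 in the utricle and -2.11 ± 0.107 in the cochlea (SD, n = 4 each). This p does not show that the 2 genes changed alike. Where each gene of a pair separates the tissues and their directions are opposite, complete separation of the pair follows from the single genes. This holds for NEFM, NEFL and UCHL1 against RTN1, and for NEFM and NEFL against VIM below. Complete separation follows also where 1 gene's gap between the tissues is wider than the range of the other gene over all arrays. That holds for NEFM against NEFL and UCHL1, and below for UCHL1 against UCHL3 and UCHL5 and for RTN1 against RTN4. For all pairs but NEFL minus UCHL1 the p of 0.0286 was therefore fixed in advance by the single genes. Neither it nor the adjusted p of 0.0314 is further support.

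**Figure D2:**
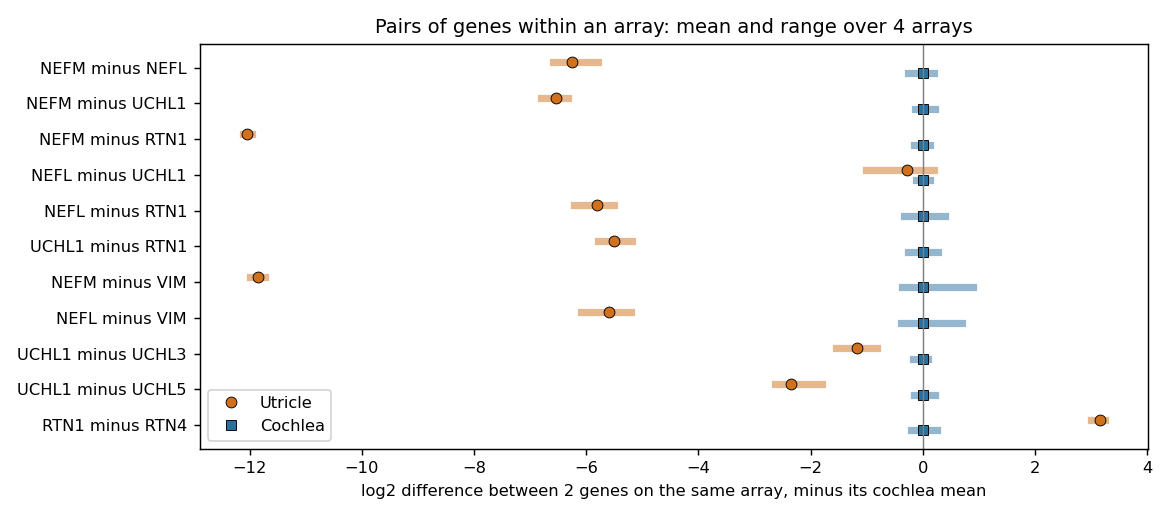
Log2 difference between 2 genes on the same array, minus its mean in the cochlea (horizontal axis), for 11 pairs of genes (rows), with the mean (symbol) and range (bar) over 4 utricle arrays (circles, upper) and 4 cochlea arrays (squares, lower). The utricle mean is shifted by -0.28 for NEFL minus UCHL1, where the ranges overlap, and by -12.04 for NEFM minus RTN1, where they do not.

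The few other intermediate filament genes that could be tested ran against the neurofilament genes. In a list of 11 such genes without NEFM and NEFL, 4 were tested and all 4 were higher in the utricle, where 26.8% of all 6623 genes tested were called higher in the utricle and 26.4% were called higher in the cochlea. Their median difference was 1.45, against 0.01 over all genes. VIM, vimentin, the filament of many non-neuronal cells, had a difference of 3.02 (95% confidence interval 2.42 to 3.62, adjusted p = 2.12e-05), from 11.99 ± 0.127 in the utricle and 8.98 ± 0.59 in the cochlea. LMNA, a nuclear lamin, had a difference of 1.83 (adjusted p = 7.69e-06). LMNB2, another lamin, had only 0.52 (adjusted p = 0.0236), and its tissues overlapped. NEFH, GFAP, NES, DES and LMNB1 did not pass the filter on dim signals. The tissue difference of NEFL minus VIM was -5.60 and that of NEFM minus VIM was -11.85 (exact p = 0.0286 each, adjusted 0.0314). As the single genes separate the tissues in opposite directions, this p was fixed in advance. INA and PRPH, which encode the other filaments of neurons, were not analysed here.

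Among 22 genes of the axonal cytoskeleton and axonal transport, 13 were tested, 4 of them higher in the utricle, 3 higher in the cochlea and 6 not passing, and the median difference was 0.18. DST, a linker of filaments, and DPYSL3, a collapsin response mediator, were higher in the utricle by 1.88 and 1.30 (adjusted p = 1.58e-04 and 5.27e-04). A second DPYSL3 probe set had 0.59 and an adjusted p of 0.0543. BASP1, a protein of axon endings, and MAP1B, a microtubule-associated protein of growing axons, were higher in the cochlea, with differences of -1.12 and -1.34 (adjusted p = 3.93e-05 and 0.00346). STMN2 had a log2 signal of 2.22 on every array and was not tested.

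UCHL3, the closest relative of UCHL1 in this list of ubiquitin and ubiquitin hydrolase genes, was also higher in the cochlea, with a difference of -1.13 (95% confidence interval -1.35 to -0.91, adjusted p = 2.06e-05, 2.19-fold). UCHL5, a hydrolase of the proteasome, had a difference of 0.05 (95% confidence interval -0.22 to 0.32, adjusted p = 0.747). Of the 8 tested genes of the list, 1 was called for the utricle, 1 for the cochlea and 6 for neither. That of the utricle was RPS27A, a ubiquitin fusion gene, with a difference of 0.24 (adjusted p = 0.0352), a call that is lost in several alternatives. The tissue difference of UCHL1 minus UCHL3 was -1.17 and that of UCHL1 minus UCHL5 was -2.35 (exact p = 0.0286 each, adjusted 0.0314). Both pairs were added after values were seen. The gap of UCHL1 between the tissues was wider than the range of UCHL3 or UCHL5 over all arrays. This p was therefore fixed in advance and is no further support.

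For RTN1, no other gene of the reticulons and of endoplasmic reticulum shaping was called higher in the utricle. Among 8 tested, the cochlea was higher for 2, 6 were not called, and the median difference was -0.11. RTN4, the reticulon also known as Nogo, had a difference of 0.07 (95% confidence interval -0.13 to 0.26, adjusted p = 0.529). RTN3 stood at 2.25 to 2.27 in the utricle and at 2.27 to 2.39 in the cochlea. It was called present on all 8 arrays but was too dim to be tested. The tissue difference of RTN1 minus RTN4 was 3.14 (exact p = 0.0286, adjusted 0.0314). RTN4 ran only from 14.25 to 14.49 over all arrays, so this p follows from RTN1 alone and is no further support. The pair was added after values were seen. REEP1, a shaping protein of neuronal endoplasmic reticulum, had a cochlea signal at least 5.6-fold higher (difference -2.60, adjusted p = 1.13e-04). The present calls used here did not cover REEP1. SPAST, spastin, had a difference of -0.33 (adjusted p = 0.0172).

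**Figure D3:**
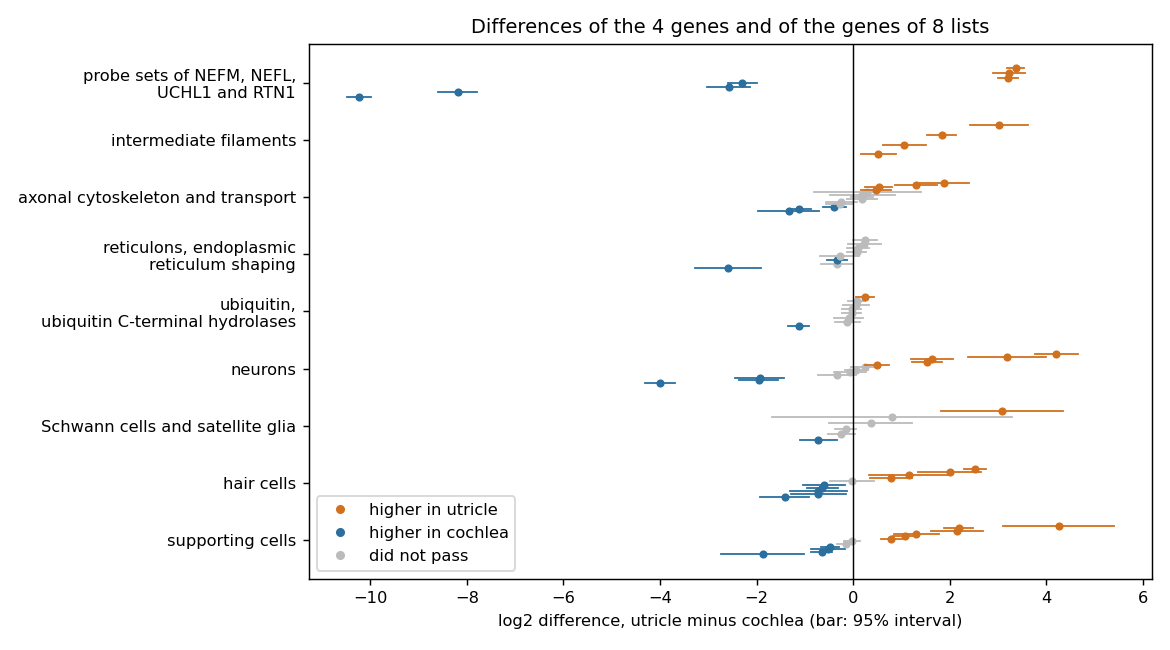
Log2 difference, utricle minus cochlea, with its 95% interval (horizontal axis), for the 7 tested probe sets of the 4 genes and for the tested genes of 8 lists (rows), with orange for higher in the utricle, blue for higher in the cochlea and grey for not passing. The 4 tested intermediate filament genes all lie to the right of 0, and the neuron list has genes on both sides.

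Other neuron markers did not follow a single direction. Of 28 listed, 21 were named on the array and 12 were tested. The utricle was higher for 5, the cochlea for 3 and 4 were not called, and the median difference was 0.15. DCX, doublecortin of young neurons, had a log2 signal of 10.10, 9.96, 10.27 and 10.80 in the utricle, against 5.74, 6.21, 6.24 and 6.12 in the cochlea. It was 18.4-fold higher in the utricle (difference 4.20, adjusted p = 4.85e-07), and SCG2, a secretogranin of neuroendocrine cells, was 2.89-fold higher there (difference 1.53, adjusted p = 2.65e-05). SNCG, gamma-synuclein, had 7.29, 7.48, 7.66 and 7.82 in the utricle, against 11.40, 11.50, 11.56 and 11.81 in the cochlea, 16.1-fold higher in the cochlea (difference -4.01, adjusted p = 9.07e-08).

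ISL1, a transcription factor of sensory neurons that is also known in the developing inner ear, was 3.9-fold higher in the cochlea (difference -1.96, adjusted p = 2.93e-05). ELAVL4, an RNA-binding protein of neurons, had a difference of 0.06 (95% confidence interval -0.18 to 0.30, adjusted p = 0.659). SNAP25, a synaptic fusion protein, had 0.50 (adjusted p = 0.0059), though another of its probe sets had 0.20 (adjusted p = 0.248). Singled out after their values were seen, the neurotrophin receptors NTRK2 and NTRK3 had opposite differences of -1.94 and 3.19. Each had all arrays of the dimmer tissue under a log2 signal of 4 and passed the filter only through the brighter tissue. Their directions therefore follow from the filter and are not support, though both are counted among the called neuron markers above. The summed linear signal of the list ran from 19718 to 25552 in the utricle and from 30243 to 33934 in the cochlea. ISL1 alone set that gap: without it the sums overlapped, at 16765 to 20969 in the utricle and 16253 to 17763 in the cochlea. ELAVL2 and STMN2 stood at a log2 signal of 2.22 on every array, with SYN2 at 2.57 to 2.67 and THY1 at 2.56 to 3.68. The part of neurons in the 4 genes' differences was not tested.

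Markers of the other cell types that the dissection could hold were also mixed. In Schwann cells and satellite glia, 6 of 12 listed genes were tested, with 1 higher in the utricle, 1 higher in the cochlea and 4 not passing. S100B had a difference of -0.72 (adjusted p = 0.0073) that rests on dim arrays. It passed the filter only through the cochlea arrays, so its direction follows from the filter and is not support. The summed glial signal spanned 5943 to 12516 in the utricle and 6861 to 8277 in the cochlea. Its upper end in the utricle came from utricle 2 and utricle 3, where MBP was bright, and without them the utricle spanned 5943 to 6611. SOX10 had the highest mean log2 signal of the tested glial genes in both tissues, 12.43 in the utricle and 12.59 in the cochlea. It therefore weighs heavily in the sum, and it was not called (difference -0.16, limma adjusted p = 0.205). NGFR and FOXD3 stood at a log2 signal of 2.22 on every array. The part of glial cells in the results was not tested.

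For hair cells 10 genes were tested: the utricle was higher for 4, the cochlea for 5, and 1 was not called. USH1C, a scaffold of the hair bundle, had a difference of 2.52, and CHRNA9, a subunit of the efferent acetylcholine receptor, had 2.00, while its partner CHRNA10 had -1.42 and MYO6, an unconventional myosin, had -0.64 (adjusted p = 1.70e-07, 4.07e-04, 7.40e-04 and 0.00522). Summed hair cell signal was 8750 to 12439 in the utricle and 6977 to 10917 in the cochlea, ranges that overlap. For supporting cells 12 genes were tested: the utricle was higher for 6, the cochlea for 4, and 2 were not called. JAG1, counted for the utricle, passed the filter only through the utricle arrays, so its direction follows from the filter. LFNG, a modifier of Notch, and PROX1, a transcription factor, had differences of 2.18 and 1.07, and HEY1, a Notch target, and TECTB, a tectorial membrane protein, had -0.65 and -0.48 (adjusted p = 2.17e-06, 5.75e-05, 5.66e-04 and 0.00106). Their summed signal was 128307 to 131576 in the utricle and 115829 to 125070 in the cochlea. These ranges do not overlap, but a few bright genes weigh heavily in the sum. GJB6, with means of 15.61 in the utricle and 15.64 in the cochlea, was not called. Of the other bright genes, SLC1A3 and LFNG were higher in the utricle and TECTB in the cochlea. The part of hair cells and supporting cells in the results was not tested.

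The genes whose profiles over the 8 arrays lay nearest to each of the 4 were found by the root mean square distance of the log2 signals, each centred on its own mean, among 6623 genes. As the tissues differ so widely, nearness here mostly reflects a like difference between them. Nearest to NEFM were SLC34A2 at 0.616, SOX7 at 1.04 and NR2F2 at 1.3, where the median gene was at 5.13. The utricle part of these distances rests on signals under 4 for NEFM. SOX7 was also under 4 on every utricle array, at 2.34 to 2.87, and SLC34A2 had 3.15, 4.27, 3.92 and 3.22 there. NR2F2 was brighter on utricle 2 and utricle 3, at 7.07 and 7.34, than on utricle 1 and utricle 4, at 4.84 and 4.87. NEFL was nearest to PLAT, tissue plasminogen activator, at 0.205, EAF2 at 0.21 and PIK3IP1 at 0.214, against a median of 1.33. UCHL1 was nearest to FGFRL1, a receptor of the fibroblast growth factor family, at 0.112, SSFA2 at 0.144 and UCK2 at 0.178, against a median of 1.18.

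RTN1 was nearest to IRX2, a homeobox transcription factor, at 0.145, AGPAT4 at 0.146 and NFASC, neurofascin, an adhesion molecule of axons, at 0.15, against a median of 1.62. NFASC had a log2 signal of 10.68, 10.68, 10.53 and 10.82 in the utricle, against 7.47, 7.29, 7.30 and 7.38 in the cochlea. Its arrays did not overlap either, and its difference was 3.32 (95% confidence interval 3.11 to 3.52, adjusted p = 2.64e-08).

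**Figure D4:**
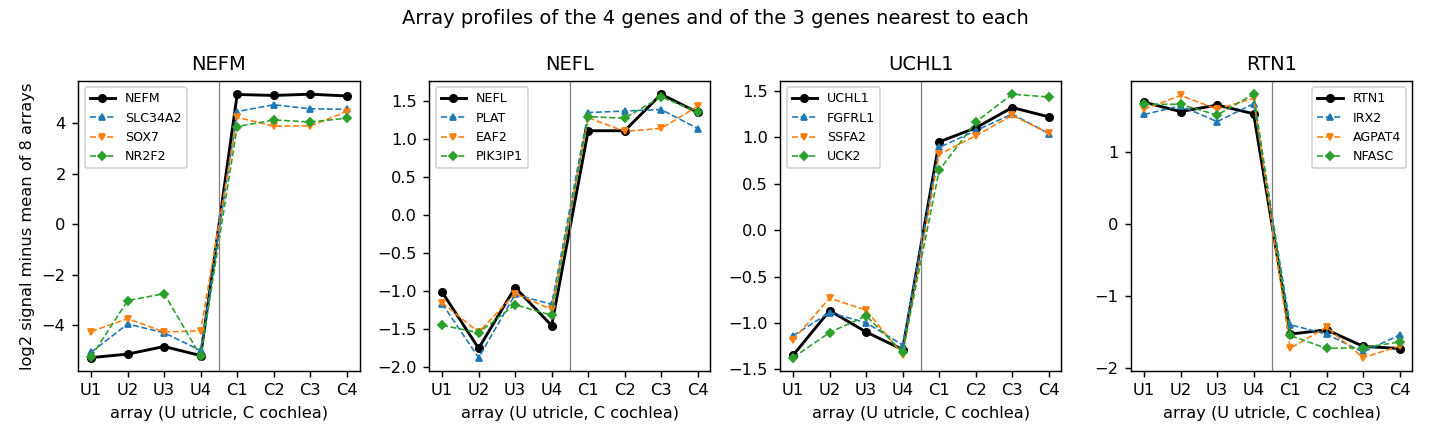
Log2 signal minus the mean of 8 arrays (vertical axis) on each utricle array (U1 to U4) and cochlea array (C1 to C4) for NEFM, NEFL, UCHL1 and RTN1 (black) and the 3 genes nearest to each (dashed). For NEFL and PLAT the array utricle 2 is the lowest, with log2 signals of 6.78 and 6.50 before the mean is taken off.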

How the data were processed

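The members and gene lists were chosen with earlier results of these data known. Total RNA of 4 utricle and 4 cochlea pools was measured on Affymetrix chicken arrays, with 0.08 μg as labelling input per the labels. The authors deposited log2 GCRMA signal (38535 probe sets, 96 of them controls left out here), and no version was given in the sources used here. Their workbook held the same values to within 1.78e-15, MAS 5.0 detection calls, and the fold ratio of the authors' SAM comparison. A further 128 columns of the workbook with per-array values were not used.

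Names came from the deposited sheet, updated through RefSeq genes (assembly GRCg7b), and 9 probe sets were named by hand from its descriptions. In all, 18231 probe sets of 10646 genes had a RefSeq symbol. Probe sets over a log2 value of 4 on 4 or more arrays were tested with limma 3.58.1 in R 4.3.3 (lmFit, eBayes, two-sided), with Benjamini-Hochberg adjustment over all 16223 and calls at an adjusted p under 0.05. Each gene was represented by the brightest of its tested probe sets, by the mean over all arrays. Exact permutation tests used scipy 1.17.1. The 5 pairs with VIM, UCHL3, UCHL5 and RTN4 were added after values were seen. Fold changes are bounds where any array of the dimmer tissue was under 4. Named genes were all probe sets of the 4 genes, up to 2 per direction with the smallest adjusted p from each list, a set of related genes, and the 3 nearest profiles. Some genes the lists hold are not reported here by name. TMHS kept its sheet name and is not counted among hair cell genes tested. The brighter of its 2 probe sets was called higher in the cochlea (difference -0.42, limma adjusted p = 0.0273). The number of arrays limits the precision.

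Arrays with the same replicate number deviated together (correlations 0.552, 0.48, 0.404 and 0.144 for numbers 1 to 4). For number 4 this was weak, as cochlea 4 correlated more with utricle 3, at 0.304. Equal numbers were taken as pairs from the data and not from the labels. They were used only in the same-numbered differences, the restricted exchange of arrays and an alternative fit with replicate number as a block. The main limma fit and the other permutation p-values did not use them. Array names carry 2 prefixes, which served as a batch: 6 arrays share the larger one. Alternatives changed the filter, normalization, weights, variance, batch, block, low values, probe set of a gene and arrays used.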

Additional observations from a re-analysis of the deposited data

Results flagged for a closer look

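Among 96 groups of 4 arrays looked at, 10 held an array far from the other arrays of its tissue, and chance gives about 1 in 20. Of these, 2 concern NEFM, both at undetected signals: set 2 stood at 2.38 on utricle 2 against 3.10 on the others, and set 3 at 2.66 on cochlea 3 against 2.22. In the cochlea, VIM was 8.10 on array 1 (others 9.18 to 9.39), RPS27A was 14.25 on array 4 (others 14.13 to 14.15) and UCHL3 was 11.31 on array 3 (others 11.19 to 11.20). CHRNA9 was 7.42 on utricle 2 (others 8.36 to 8.53) and 5.59 on cochlea 4 (others 6.37 to 6.43). PLAT was 6.50 on utricle 2 (others 7.20 to 7.33) and 9.51 on cochlea 4 (others 9.72 to 9.76), and SOX7 was 2.87 on utricle 2 (others 2.34 to 2.39). All values are log2 signals, and the cause was not tested.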

How the results depend on the processing

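There were 20 alternatives, 1 of them (without utricle 2 and utricle 3) added after seeing the data. Over them the differences of NEFM, NEFL, UCHL1 and RTN1 kept their direction and stayed past the threshold. NEFM passed the main filter only through the cochlea arrays, so its kept direction is not support. Its p-values and ranges draw on the spread of undetected utricle signals. NEFM ran from -10.36 to -8.83 (the -8.83 with values under 4 raised to 4), NEFL from -2.73 to -2.43, UCHL1 from -2.47 to -2.23 and RTN1 from 3.17 to 3.26. With 1 array left out they ran from -10.33 to -10.18, -2.69 to -2.43, -2.39 to -2.23 and 3.17 to 3.26. With the replicate block, the pairing by number, the differences were -10.23, -2.58, -2.30 and 3.21 (limma adjusted p = 2.48e-06, 5.87e-05, 4.01e-05 and 6.28e-06). It changed no call of these genes but took RPS27A to an adjusted p of 0.0505. Within the 6 arrays of the larger name prefix they were -10.17, -2.73, -2.30 and 3.21. Probe sets called ran from 3569 to 4855 (utricle) and from 3366 to 4583 (cochlea). Calls were lost for RPS27A in 9 alternatives, SPAST in 2, and S100B and MYO6 in 1 each. UCHL5, not called, turned to -0.0034 without utricle replicate 4 (adjusted p = 0.985) and ran up to 0.14 with another array left out. The cause was not tested. Signals under 4, as for NEFM in the utricle, give only bounds.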
